A study of Mus musculus with 663 samples.

Results

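Anti-Müllerian hormone, encoded by Amh, and its type II receptor, encoded by Amhr2, were followed across single somatic cells of the developing mouse ovary. Both genes were taken by name, as 2 of the 43320 gene names of the deposited expression table. The study sorted living cells that carried an Nr5a1-eGFP reporter from XX gonads of mice of mixed background and captured them singly on small Fluidigm C1 chips. Every group shared the reporter genotype and the eGFP gate, and the groups were the stages: E10.5, E11.5, E12.5, E13.5 and E16.5 of fetal life, and postnatal day 6 (P6). Complementary DNA was made with the SMARTer kit and libraries with Nextera XT, and 1 library was 1 cell.

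The reporter is driven by Nr5a1, a nuclear receptor of the somatic and steroidogenic lineages of the gonad, so cells without the reporter were outside the gate. After 1 early capture (the second of E12.5) was set aside, 609 cells in 11 captures remained, namely 71 cells of E10.5, 106 cells each of E11.5 and E13.5, 110 cells of E12.5, 95 of E16.5 and 121 of P6. E10.5 had 1 capture and each later stage had 2. The median cell of a capture held between 1.89 and 3.20 M (mega) reads, estimated from the steps of the values. The captures of E10.5, E11.5 and E13.5 and 1 capture of E12.5 belonged to a first sequencing series, and the others to a second.

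In the male fetus, anti-Müllerian hormone from Sertoli cells makes the Müllerian ducts regress. In the female it is made after birth by granulosa cells of growing follicles, where it restrains the recruitment of primordial follicles and the response to follicle-stimulating hormone. The hormone binds Amhr2, a serine/threonine kinase receptor that recruits a type I receptor (Acvr1, Bmpr1a or Bmpr1b), and the complex phosphorylates Smad1, Smad5 and Smad9.

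Amh (ENSMUSG00000035262.5) lies on the plus strand of chromosome 10, bases 80805243 to 80807648 of GRCm38, in a dense stretch. Sf3a2, a splicing factor gene on the same strand, ends 318 bases before it. Jsrp1, on the minus strand and so read towards Amh, ends 847 bases beyond it. Amhr2 (ENSMUSG00000023047.11) lies on the plus strand of chromosome 15, bases 102445367 to 102454633. The Amhr2 promoter is shown because Nr5a1 marks the sorted cells and varied with Amhr2 between them. The sequence (RefSeq, GRCm38.p6, chr15:102445117-102445416, plus strand) runs from 250 bases before the start site to 50 after it, and the capitals mark CAAGGTCA, a sequence that NR5A1 is known to bind.
Amhr2 promoter: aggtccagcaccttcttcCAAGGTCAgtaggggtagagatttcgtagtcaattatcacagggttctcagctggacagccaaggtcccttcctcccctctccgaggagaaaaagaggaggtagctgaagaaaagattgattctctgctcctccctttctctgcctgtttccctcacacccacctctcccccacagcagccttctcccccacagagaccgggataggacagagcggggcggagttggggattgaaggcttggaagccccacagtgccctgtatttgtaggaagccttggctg
The match begins 232 bases before the start site. Searched on both strands, CAAGGTCA was in 512 of 32851 promoters of the same length (1.56%). Its shorter core AGGTCA, which overlaps it, was in 16.3% of them. Of GATA sites only the spelling AGATAA was searched, which was in 11.2% of all promoters and was not found in this window. Other spellings were not searched, so the window may still hold a GATA site. A match describes the letters and is not evidence of binding.

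Amhr2 was lowest at E10.5 and was present at every stage, while Amh was found almost entirely at P6. The mean Amhr2 level over the cells of the E10.5 capture was 7.66 RPKM (reads per kilobase of transcript, scaled to library size, so a level per length), the E11.5 captures had 72.2 and 59.7 RPKM and the E12.5 captures 147.6 and 145.6 RPKM. The means were 113.2 and 107.9 RPKM in the E13.5 captures, 191 and 109.01 RPKM in those of E16.5, and 123.2 and 88.96 RPKM in those of P6. Both E11.5 captures lay above the E10.5 capture, as they did for 29.4% of the genes tested, and both E12.5 captures lay above both of E11.5, as for 18.3%. From E12.5 on, every capture lay between 88.96 and 191 RPKM, and those of P6 and E16.5 overlapped. From E11.5 the stage mean of Amhr2 exceeded that of at least 94.7% of the 19384 genes tested, and at E10.5 that of 66.3%.

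Amhr2 rose at E11.5 relative to E10.5, by 2.94 ± 0.38 (SE) on the log2(RPKM + 1) scale (adjusted p = 0.0314, limma over all genes with Benjamini-Hochberg adjustment, 2 captures against 1, the lone E10.5 capture being assumed to vary like those of the other stages). In this comparison 1.36% of the genes tested were called, and 0.232% of the genes tested were called higher. The call was lost without either E11.5 capture (adjusted p = 0.112 and 0.0840), without either E13.5 capture (0.0935 and 0.0941) or without either P6 capture (0.0671 and 0.0677), while the difference stayed between 2.81 and 3.08. It was also lost with a filter of 1 RPKM in at least 2 captures (adjusted p = 0.0607), the second E12.5 capture kept (0.0633), a pseudocount of 10 (0.0751) or log2 values averaged over cells (0.214), all by limma. No other step between consecutive stages passed for Amhr2: the differences were 1.16 ± 0.38 for E12.5 against E11.5 (adjusted p = 0.455), −0.41 ± 0.38 for E13.5 against E12.5 (0.929), 0.40 ± 0.54 for E16.5 against E13.5 (0.925) and −0.46 ± 0.31 for P6 against E16.5 (0.5995), all by limma. Over all stages together, Amhr2 passed limma's F test (adjusted p = 0.0405), as did 3.19% of genes. Without the E10.5 capture its adjusted p was 0.440. The F test also failed, with an adjusted p above 0.05, without either capture of E11.5, E13.5 or P6 (0.0600 to 0.0958).

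**Figure D1:**
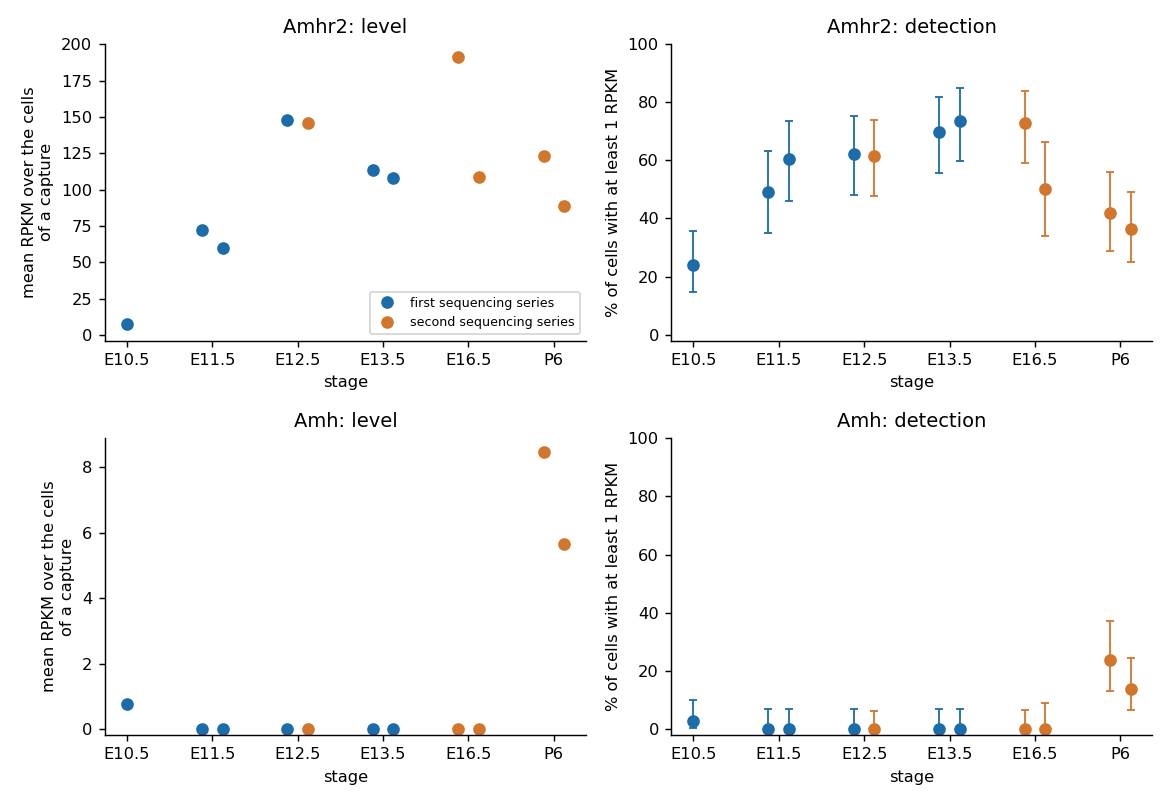
Mean level in RPKM over the cells of a capture (left) and percent of cells with at least 1 RPKM with exact 95% binomial intervals (right) for Amhr2 (top) and Amh (bottom), 1 point per capture, coloured by sequencing series. Amhr2 lies lowest at E10.5, at 7.66 RPKM, and Amh lies at 8.46 and 5.66 RPKM at P6 against 0 in both E16.5 captures.

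A cell was counted as positive for a gene at 1 RPKM or more, which for Amhr2 in the median cell was a little over the 0.558 RPKM that 3 reads are worth. Amhr2-positive cells were 23.9% of E10.5 cells (17 of 71, exact 95% interval 14.6 to 35.5%), 49.1% and 60.4% in the E11.5 captures, 62.3% and 61.4% in those of E12.5, and 69.8% and 73.6% in those of E13.5. They were 72.7% and 50% in the E16.5 captures, and 41.8% and 36.4% at P6. The stage mean of the share was highest at E13.5, and the share was lower in both P6 captures than in either E16.5 capture, as it was for 17.8% of the genes tested. The median cell had 4998 and 3640 genes detected in the P6 captures and 4870 and 4499 in those of E16.5, and the part of this in the shares was not tested. Shares differed between stages (exact permutation test over 10395 arrangements of the captures, on a sum of squares without direction, p = 0.0296, Benjamini-Hochberg adjusted over both genes 0.0296). That test exchanged captures between the sequencing series. With captures exchanged only within a series (5400 arrangements, an alternative chosen after the data were seen), the exact permutation p for Amh was 0.0333. Amh had positive cells only in the captures of P6 and E10.5, so this p could not be lower and also drew on E10.5. For Amhr2 the exact p of that test was 0.0207, and the adjusted p was 0.0333 for both genes. The adjusted p was above 0.05 in 8 of the 11 tests without 1 capture, highest without E10.5 (0.111), and under it without the second E11.5 capture or either of E16.5. At a threshold of 5 RPKM it was 0.0627.

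With the captures of a stage pooled, the median level in positive cells followed another course than their share. The median Amhr2-positive cell of E10.5 held 16.8 RPKM, that of E11.5 77.4, of E12.5 196, of E13.5 129.4, of E16.5 194 and of P6 184 RPKM. By capture, these medians were 114.7 and 45.4 RPKM at E11.5, 215.5 and 193.0 at E12.5, and 132.2 and 127.3 at E13.5. They were 211.9 and 192.2 RPKM at E16.5, and 266.8 and 95.5 at P6. The second P6 capture thus lay below both E13.5 captures and the first above all others. At E10.5, 1 of 71 cells reached 100 RPKM, at E16.5 43 of 95 and at P6 29 of 121. Of the P6 cells, 65 of 121 were at 0 and the highest was at 1216 RPKM. In the mean of a capture, fewer positive cells and less RNA per cell cannot be told apart.

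**Figure D2:**
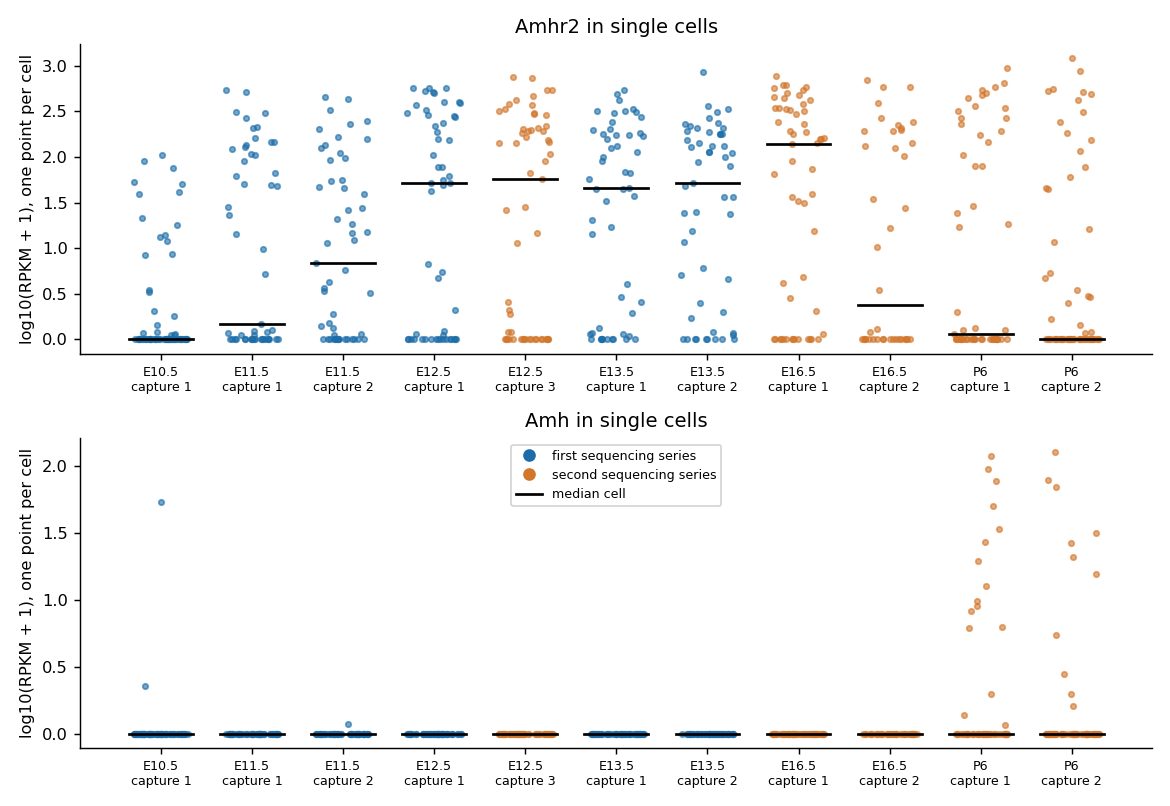
Every cell's Amhr2 (top) and Amh (bottom) as log10(RPKM + 1), by capture in order of stage, with the median cell as a black line. The median cell of Amhr2 lay at 137.3 RPKM in the first E16.5 capture and at 0 in the second P6 capture, and Amh points above 0 are almost all at P6.

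Amh was found almost entirely at P6. The E10.5 capture had a mean of 0.764 RPKM, the E11.5 captures had 0 and 0.00349 RPKM, and the mean was 0 in all captures of E12.5, E13.5 and E16.5, and 8.46 and 5.66 RPKM at P6 (7.06 ± 1.97, SD, n = 2 captures). Both P6 captures stood above every earlier capture. Amh rose at P6 relative to E16.5, where it was listed at 0, by 2.99 ± 0.25 (SE) on the log2(RPKM + 1) scale (adjusted p = 0.0348, limma with Benjamini-Hochberg adjustment), in a comparison where 0.371% of genes were called, 0.222% of all genes higher, and 17.4% had both P6 captures above both E16.5 captures. Since Amh did not vary in the captures at 0, its spread in this fit came largely from the P6 captures and from the trend over all genes, and no fold is given against 0.

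With the difference still at 2.99, the call was lost without either E11.5 capture (adjusted p = 0.0943 and 0.0942), without either E13.5 capture (0.0947 and 0.105), and in the second sequencing series alone (0.409), which holds both stages. With log2 values averaged over cells in place of the log2 of the mean it was 0.87 (adjusted p = 0.0665). Amh passed the F test over stages (adjusted p = 0.0246, limma), but not without the E10.5 capture (0.0568) or the first E16.5 capture (0.0549).

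Positive cells gave the same order. At P6, 13 of 55 cells (23.6%, exact interval 13.2 to 37.0%) and 9 of 66 cells (13.6%, 6.43 to 24.3%) held at least 1 RPKM of Amh, against 0 of 55 and 0 of 40 at E16.5. No cell of the 95 at E16.5 was positive, which allows a share of up to 3.16% by the limit of 3 counts over the cells, and the same limit was 2.73% at E12.5 and 2.83% at E11.5 and at E13.5. The upper end of the exact 95% interval for E16.5 was 3.81%, and both cover counting error only. Across stages the exact permutation test gave p = 0.0101 (adjusted 0.0202), and at thresholds of 5 and 10 RPKM it gave 0.101 and 0.0101. Of the 10395 arrangements, 945 (a share of 0.0909) keep both P6 captures together. A p below that share also drew on the E10.5 capture, the only earlier one with positive cells. Without the E10.5 capture p was 0.111. Every capture then left but those of P6 was at 0, so p could not be lower and that test cannot decide. Without the first E11.5 capture or any 1 capture of E12.5 or E13.5, p was 0.0444 and the adjusted p 0.0523 to 0.0832.

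Before P6, 3 cells held any Amh. At E10.5, 1 cell held 52.9 RPKM, about 271 reads, and another 1.27 RPKM, about 6.02 reads. Both fell in the mesonephros-like cluster, which had 3 of 6 listed mesonephros markers raised (Pax8, Lhx1 and Sall1) and held 48 of the 71 E10.5 cells. Foxl2, the transcription factor of granulosa identity, was at 0 in both, as in every cell of that capture. The third was an E11.5 cell with a single read. The E10.5 cells were not tested as a group.

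The P6 positive cells ranged from 1.81 to 126.7 RPKM of Amh with a median of 22.9, and 5 further cells held less than 1 RPKM. They carried Inha, the inhibin alpha subunit made by granulosa cells, at 140 to 9067 RPKM. Sox9, which drives Amh in Sertoli cells, was at 0 in 21 of the 22 cells and at 0.56 RPKM in the other. Foxl2 ran from 0 to 145.9 RPKM in them with a median of 6.30, and Hsd17b1, which makes estradiol from estrone, from 0 to 1234 RPKM. Of its neighbours, Jsrp1 had 7.54 and 5.08 RPKM at P6 and 0 in both E16.5 captures (adjusted p = 0.127, limma), and Sf3a2 had 1.33 and 3.19 RPKM at P6 against 0.788 and 0.248 at E16.5 (adjusted p = 0.399). Whether the counting used strand is not given in the sources used here, and the part of neighbouring transcripts in the Amh values was not tested. Jsrp1 was at 0 in 11 of the 22 positive cells, among them one with 117.9 RPKM of Amh, and was highest, at 214 RPKM, in the cell with the highest Amh, at 126.7 RPKM.

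Ligand and receptor were then compared cell by cell at P6. Of 121 cells, 16 held both genes at 1 RPKM or more (13.2%, exact interval 7.75 to 20.6%), 6 held Amh alone, 31 held Amhr2 alone and 68 held neither. The counts were 8, 5, 15 and 27 in the first P6 capture and 8, 1, 16 and 41 in the second. Amhr2 was thus found in 72.7% of Amh-positive cells (16 of 22, 49.8 to 89.3%) and in 31.3% of the other P6 cells (31 of 99, 22.4 to 41.4%).

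Spearman's rho between the genes over cells was 0.35 in the first capture (55 cells) and 0.50 in the second (66 cells), as a description, since cells of a capture share chip, library batch and depth. The Amh-positive cells were also richer libraries, with a median of 2.93 M reads and 5060.5 genes, against 2.05 M reads and 3971 genes in the other P6 cells. The part of this difference in the co-detection was not tested.

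**Figure D3:**
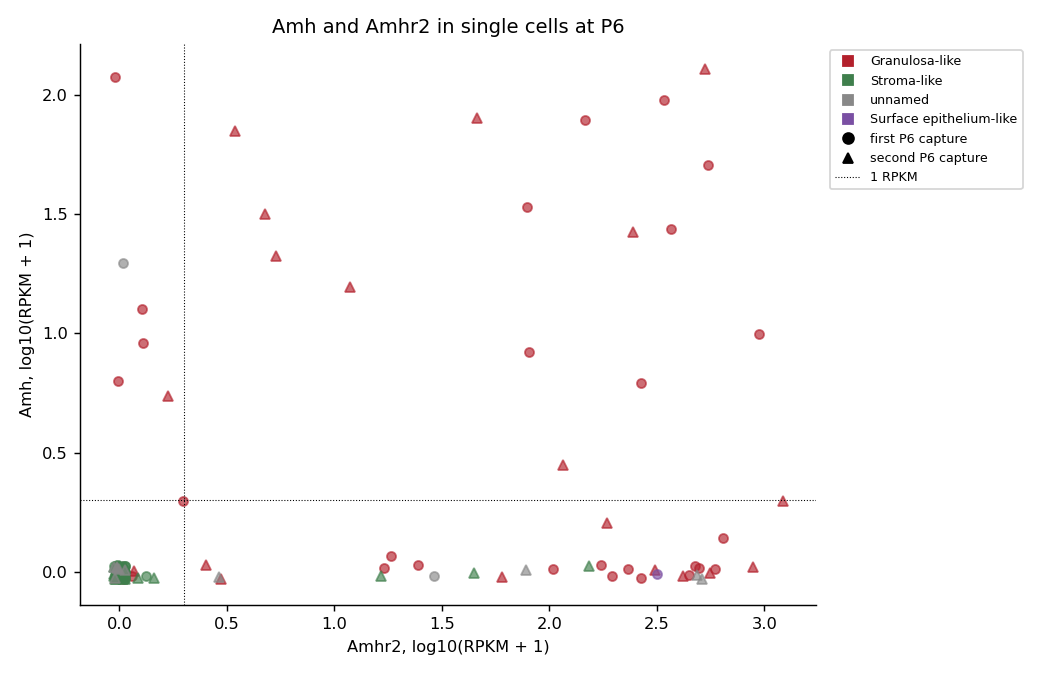
Amhr2 against Amh as log10(RPKM + 1) in the 121 P6 cells, coloured by cluster name and shaped by capture, with dotted lines at 1 RPKM and points at 0 spread slightly. Of the 22 Amh-positive cells, 21 are granulosa-like, and 16 lie to the right of the line for Amhr2.

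Cells were clustered with Amh, Amhr2 and the reporter left out, and clusters were named only from marker lists. At P6, 49 cells were granulosa-like, in 1 cluster with 12 of 15 listed granulosa markers raised, among them Inha, Hsd17b1, Inhbb and Fshr, the receptor for follicle-stimulating hormone. Another 59 cells were stroma-like, by Nr2f2, Pdgfra, Tcf21 and collagen genes, 1 was surface epithelium-like and 12 were in unnamed clusters. Of the 22 Amh-positive cells, 21 were granulosa-like, or 42.9% of that class in each capture (12 of 28 and 9 of 21), and none of the 59 stroma-like cells was positive.

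Inside the granulosa-like class, the shares lay close together with the captures pooled, but their order differed between the captures. Amhr2 was positive in 76.2% of its Amh-positive cells (16 of 21) and in 78.6% of its other cells (22 of 28). In the same order, these shares were 66.7% and 81.25% in the first P6 capture and 88.9% and 75% in the second. Within the class, rho was −0.07 and 0.10 in the captures. The Amh-positive cells of the class held Amhr2 at a median of 77.8 RPKM and Inha at 3304 RPKM, against 178 and 960 RPKM in the class's other cells. Foxl2 medians were 6.83 and 9.64 RPKM in the same order. Depth differed less within the class, with 2.97 M reads in Amh-positive cells and 2.59 M in the others.

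Amhr2 was positive in nearly all cells of the pregranulosa-like clusters. Pregranulosa-like cells, named from Fst, Irx3, Lgr5, Rspo1, Gng13 and Kitl, with Foxl2 raised in 1 of their 3 clusters, held Amhr2 in 47 of 48 cells at E12.5 (mean 274 RPKM), 53 of 53 at E13.5 (180 RPKM) and 33 of 36 at E16.5 (211 RPKM), and Amh in none of these cells. A different cluster held most of them at each stage (37 of 48, 38 of 53 and 36 of 36). Granulosa-like cells at P6 held Amhr2 in 38 of 49 (77.6%, 63.4 to 88.2%, mean 225 RPKM). Stroma-like cells held it in 2 of 15 at E12.5, 3 of 9 at E13.5, 3 of 27 at E16.5 and 3 of 59 at P6, where all 3 came from the second capture.

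Cells of the surface epithelium-like clusters were a further source. Amhr2 was positive in 7 of 19 such cells at E12.5, 7 of 14 at E13.5 and 15 of 17 at E16.5, but the stages drew on different clusters. Of the E16.5 cells, 13 were in the smaller of their 2 clusters, which also had 5 of 12 pregranulosa markers raised; all 13 were positive, with a mean of 353 RPKM. The other 4 were in the larger cluster, which held all such cells of E12.5 and 13 of the 14 of E13.5; 2 of the 4 were positive, with a mean of 15.6 RPKM. At a resolution of 0.6 no cluster took this name, and 50 cells of E16.5 were pregranulosa-like, 47 of them positive. At E11.5, where nearly all cells were in unnamed clusters, the receptor was uneven: 30 of 31 cells of the cluster led by Myl1, Gbp5 and Pnlip were positive (mean 162.5 RPKM), against 15 of 45 in the cluster led by Ibsp, Mc2r and Cldn6 (11.1 RPKM).

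Unnamed clusters, kept out by marker limits chosen after the values were seen, held 22 of 71 cells of E10.5, all but 3 of the 106 of E11.5, 26 of 110 of E12.5, 30 of 106 of E13.5, 13 of 95 of E16.5 and 12 of 121 of P6. At E10.5, 48 of the named cells were mesonephros-like and 1 was surface epithelium-like, and 12 of the 48 held Amhr2.

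**Figure D4:**
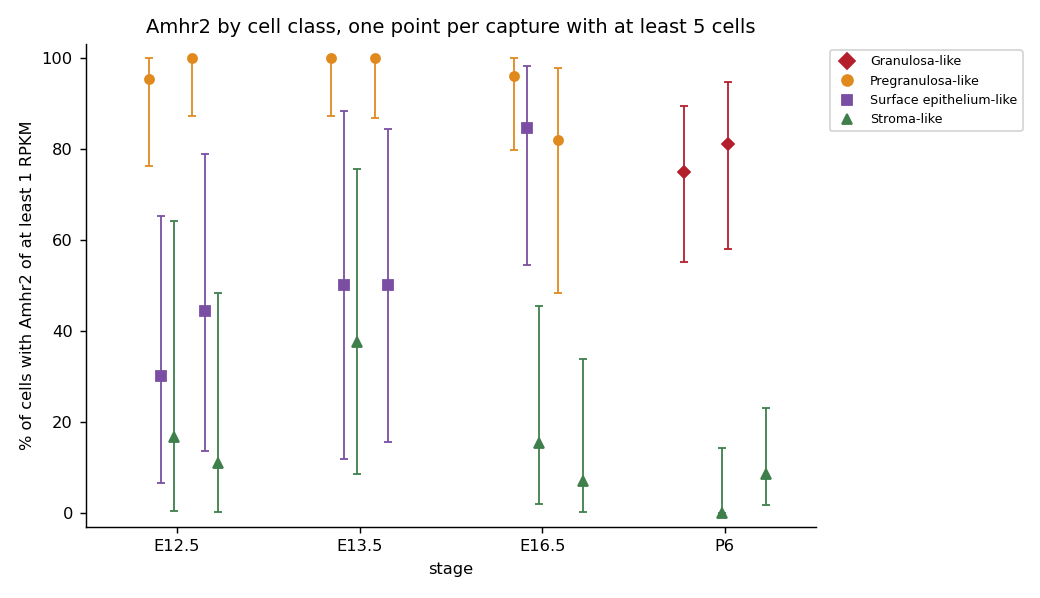
Percent of cells with at least 1 RPKM of Amhr2 by cluster name and stage from E12.5, 1 point per capture with at least 5 cells of that name, with exact 95% binomial intervals. Pregranulosa-like cells lie at 81.8 to 100%, granulosa-like cells at 75 and 80.95%, and stroma-like cells at 0 to 37.5%.

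Between cells, Amhr2 varied with Nr5a1 before birth and hardly at P6, while its correlation with Inha was above 0 in all captures but the first of E16.5. Spearman's rho of Amhr2 with Nr5a1 was 0.35 over the 71 cells of E10.5, then 0.56 and 0.68 in the E11.5 captures, 0.76 and 0.64 in those of E12.5, 0.59 and 0.53 in those of E13.5, and 0.52 and 0.47 in those of E16.5. At P6 it was 0.01 and 0.16, below every earlier capture. With Inha it was 0.06 at E10.5, 0.41 and 0.46 in the E11.5 captures, 0.30 and 0.58 in those of E12.5, 0.51 and 0.34 in those of E13.5, −0.10 and 0.64 in the E16.5 captures, and 0.57 and 0.67 at P6.

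Nr2f2, a transcription factor of stromal progenitors, ran against Amhr2 in all captures from E11.5 on, with rho between −0.71 and −0.37. With Foxl2, rho over all cells of a stage was between 0.075 and 0.28 from E11.5 on. These are descriptions over 40 to 71 cells of a capture that share library batch and depth. At E16.5, 45 of the 51 cells with at least 10 RPKM of Nr5a1 were positive for Amhr2, against 15 of the 44 others, and at P6 20 of 47 were, against 27 of 74 others.

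**Figure D5:**
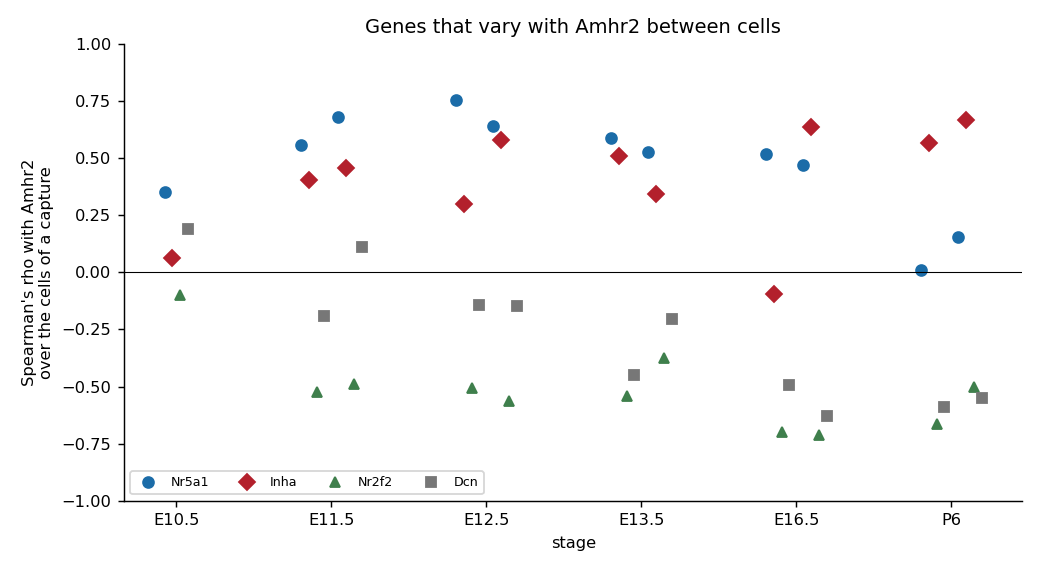
Spearman's rho of Amhr2 with Nr5a1, Inha, Nr2f2 and Dcn (a stromal proteoglycan) over the cells of each capture, by stage. Nr5a1 lies between 0.35 and 0.76 before birth and at 0.01 and 0.16 at P6, while Nr2f2 is below 0 in every capture.

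The genes most like Amh over the 121 P6 cells, by the mean of the captures' rho among 6368 genes with enough signal, were Kazald1 (0.71), Inha (0.63), Ephx2, a soluble epoxide hydrolase (0.63), Inhbb, the inhibin beta B subunit (0.62), Clu, a secreted chaperone (0.61), Tnni3, a troponin subunit (0.60), Hsd17b1 (0.59) and Bex4 (0.59). The values of Hsd17b1 lay far apart, at 0.33 and 0.85 in the captures. Amhr2 ranked 79 in this list. The genes most like Amhr2 at P6 were Isyna1, an inositol phosphate synthase (0.71), Dpf3 (0.68), Gstm2, a glutathione transferase (0.65), Ivns1abp (0.64), Myo1e, a myosin (0.63), Inha (0.62), Col18a1, a basement membrane collagen (0.60), and Tanc2 (0.60). At E16.5 they were Itga6, a laminin receptor (0.64), F11r, a junction protein (0.64), Kitl, the Kit ligand of granulosa cells (0.61), Gstm2 (0.61) and Cav1 (0.60), over 95 cells; of these 5, 1 was among the top 5 of the first E16.5 capture alone and 4 among those of the second.

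The rest of the pathway was measured in 18 further genes, so 20 genes with both members. Among them limma called only the members, Amhr2 higher at E11.5 against E10.5 and Amh higher at P6 against E16.5. In these comparisons 0.232% and 0.222% of all genes were called higher. None of the 18 further genes was called in any comparison. The other 3 comparisons had no call among the 20, and 0.954%, 0.929% and 0.975% of all genes were called in them. The type I receptor Bmpr1a was present from the start, at 27.3 RPKM at E10.5 and between 16.2 and 33.7 RPKM in the captures up to E16.5, and at 5.30 and 20.3 RPKM at P6. Acvr1 stayed between 0.541 and 8.0 RPKM and Bmpr1b between 0.0231 and 9.78 RPKM. In RPKM, Amhr2 lay below Bmpr1a at E10.5 and above all 3 type I receptors in every later capture.

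Of the signal carriers, Smad5 had 10.3 RPKM in the E10.5 capture, 28.8 and 29.95 in those of E11.5 and 16.98 and 14.7 in those of P6, while Smad1 lay between 0.559 and 8.15 RPKM and Smad9 was at 0 in both P6 captures. Smad5 at E11.5 against E10.5 differed by 1.42 ± 0.24 (adjusted p = 0.0756, limma). None of 6 target genes of these SMADs (Id1, Id2, Id3, Id4, Msx1 and Msx2) was called in any of the 5 comparisons. Between 0.371% and 1.36% of all genes were called in a comparison, so 0 of 6 is near the background. Msx1 had 0.2996 and 0.0389 RPKM at E16.5 against 11.4 and 13.2 RPKM at E13.5 (adjusted p = 0.214, limma), stages that were sequenced in different series. Of the convertases that could cleave the hormone, Pcsk6 had 29.99 and 22.5 RPKM at P6 against 16.7 and 35.5 at E16.5.

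None of 10 known regulators of Amh was called in any of the 5 comparisons, in which 1.36%, 0.954%, 0.929%, 0.975% and 0.371% of all genes were, so 0 of 10 is near the background. Foxl2 had 23.8 and 26.1 RPKM at P6 against 6.77 and 12.8 at E16.5 (adjusted p = 0.500, limma) and Nr5a1 24.9 and 13.9 against 30.5 and 20.4 (0.720). Dmrt1 was at 0 in both stages. Of 5 genes of the response to follicle-stimulating hormone, Cyp11a1, which makes pregnenolone, was called higher at E11.5 than at E10.5 (by 3.55 ± 0.49, adjusted p = 0.0362, limma), and Cyp19a1, the aromatase, had 24.7 and 6.59 RPKM at P6 against 0 and 0.00564 at E16.5 (adjusted p = 0.0766, limma). Fshr was listed at 0 in every capture but the first of P6, where it was 7.82 RPKM.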

How the data were processed

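The deposited table holds 1 value per gene name and cell, with no unit in its header. The values deposited by the authors were read as RPKM, normalized by them to gene length and library size, because low values come in steps that depend on the gene and column sums differ. The submitters' processing notes name the builds GRCm38.p3 and mm10. For the aligner, counter, strand setting and filters, the sources used here give nothing. Names turned into dates by a spreadsheet (27) were left out, leaving 43320. Of 663 libraries, 1 repeat of a cell was averaged with its first (r = 0.996 against at most 0.802 for other pairs), giving 662 cells. The second E12.5 capture (53 cells, median 0.148 M reads, M being mega) was left out by the rule that chose the genes. Members, lists and tests were chosen with earlier results of these data known.

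Reads per cell were estimated from the value steps and GENCODE vM21 exon lengths; of Amhr2 values of up to 20 reads, 76 of 76 came within 0.05 of a whole read, and of Amh values 8 of 10. In the median cell, 1 read was worth 0.223 RPKM for Amh and 0.186 for Amhr2. The capture was the replicate. Means over the cells of a capture were tested as log2(RPKM + 1) with limma 3.58.1 in R 4.3.3 (stage and sequencing series, intensity trend, 4 residual degrees of freedom), for 19384 genes with at least 1 RPKM in at least 1 capture, called at an adjusted p under 0.05. The lone E10.5 capture was assumed to vary like the others, and with the series term the first E12.5 capture alone set the E12.5 level. Nothing in the labels ties captures to separate litters; p-values therefore speak only to how captures vary, and that variation may be technical. The deposited values carry no counts, so no count model was used.

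Cells were clustered with scanpy 1.11.5 in Python 3.11.15 (2000 variable genes, 20 components, 15 neighbours, resolution 1, 13 clusters), and no doublet caller was run. A cluster was named when at least 3 markers and 40% of a list were 2-fold higher and its top 10 genes held no more markers of another list. Named genes were the members, the pathway, regulator, neighbour and hormone response lists, and the 8 genes most like each member at P6 (5 for Amhr2 at E16.5; at least 5 RPKM in each capture and detected in 10% of cells, provisional names skipped). The values of 1 listed regulator are not reported here. Alternatives changed the pseudocount, filter, averaging, scaling, captures, series term, cell filter, thresholds and resolution.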

Additional observations from a re-analysis of the deposited data

Results flagged for a closer look

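Amhr2 was also present in the second E12.5 capture, which entered no comparison: its mean was 72.6 RPKM over 53 cells, 27 of which held at least 1 RPKM. The other E12.5 captures had 147.6 and 145.6 RPKM. That capture had a median of 0.148 M reads per cell, and Amh was at 0 in all its cells. The 27 cells were all those above 0 for Amhr2, so at this depth 1 RPKM did not set apart cells with few reads.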

How the results depend on the processing

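No paired analysis was possible because captures carry no number shared between stages. Leaving out each capture in turn moved the share of genes called between 0.702 and 2.55% for E11.5 against E10.5, 0.393 and 2.33% for E12.5 against E11.5, 0.330 and 2.01% for E13.5 against E12.5, 0 and 2.78% for E16.5 against E13.5, and 0 and 2.19% for P6 against E16.5. These shares were 1.36, 0.954, 0.929, 0.975 and 0.371% with all captures. A filter of 1 RPKM in at least 2 captures gave 0.0782, 0.00601, 0 and 0% in the first 4 comparisons, no filter 4.21, 1.88, 1.75 and 3.42%, averaged log2 values 2.24, 0, 0 and 0%, and no series term 0.562, 0.00516, 0 and 0%, with 0.614% for P6 against E16.5. Rescaled cells gave 2.11% for E11.5 against E10.5 and 2.06% for E16.5 against E13.5. A pseudocount of 0.1 gave 0.588% for E12.5 against E11.5 and 0.526% for E13.5 against E12.5. Keeping the second E12.5 capture gave 0, 0 and 0.528% in the E12.5, E13.5 and E16.5 comparisons, and the second series alone gave 0% for P6 against E16.5. Wherever limma called 0 genes, between 1093 and 2131 genes had an unadjusted p under 0.05, a limit that some genes pass when nothing differs. The causes were not tested.

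For Amh at P6 against E16.5 the change was 2.74 to 3.24 when a capture was left out; the call was lost with averaged log2 values (0.87) and in the second series alone (2.99). Amh at E11.5 against E10.5 (−0.82) passed in the first series alone. The adjusted p of Amh's F test was 0.0152 to 0.0568 without a capture, 0.0978 with the 2-capture filter, 0.0967 with averaged log2 values and 0.138 in the second series. For Amhr2 at E11.5 against E10.5 the change was 2.81 to 3.08 without a capture and lost its call with the 2-capture filter or the second E12.5 capture kept (2.94 in both), averaged log2 values (2.21) or a pseudocount of 10 (2.10). Its F test had adjusted p of 0.0326 to 0.440 without a capture, 0.0926 with the E12.5 capture kept, 0.146 with averaged log2 values, 0.0664 with a pseudocount of 10 and 0.826 in the second series. Amhr2 turned its sign at E13.5 against E12.5 (0.0927 with the capture kept, 0.29 with averaged log2 values) and at E16.5 against E13.5 (−0.11 and −0.35 in the same order, −0.000325 to 0.80 without a capture), in no case past the threshold. The detection tests had adjusted p of 0.0444 to 0.111 for Amh and 0.00466 to 0.111 for Amhr2 without a capture, and 0.101 and 0.0627 at 5 RPKM. Cells with both genes at P6 were 12.1 to 14.5% of a capture, and 7.44% at 10 RPKM. The shares of P6 granulosa-like and stroma-like cells with either gene kept within their intervals at both other resolutions. The surface epithelium-like name did not: at 0.6 no cluster had it, and at 1.5 it took 37 cells of E16.5 (34 positive for Amhr2), leaving 16 pregranulosa-like (14 positive). Of the 8 genes most like Amh at P6, 5 were shared with Pearson's r and 3 and 5 with each capture alone; for Amhr2 at P6 these were 6, 5 and 6 of 8, and at E16.5 3, 1 and 4 of 5.

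In the median cell 3 reads were worth 0.67 RPKM for Amh and 0.558 RPKM for Amhr2. At that depth so few reads did not count as positive, but the threshold was not scaled to depth. In 1 P6 cell of 1.54 M reads, a single Amh read was worth 0.391 RPKM. In cells shallower than the median, so few reads could therefore count as positive. The 1 or 2 captures a stage limit every test.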
